A study of Homo sapiens with 4 samples.

Results

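The genes described here are 34 genes of ATF4 and the integrated stress response, chosen by name, out of 18650 loci with fragments in the table. They were divided into 21 stress regulators, 12 amino acid and one-carbon enzymes and XPOT, the nuclear exporter of tRNA. The study sequenced RNA of HT-29, a human colorectal adenocarcinoma line, and of NCM460, a line from colon epithelium used as the normal counterpart. Each line was measured without sturgeon chondroitin sulfate (SCS), a sulfated glycosaminoglycan from fish cartilage, and after 24 h with SCS at 100 μg/mL. Each of the 4 conditions had 1 library, so no difference has a replicate check and no test between conditions within a line could be made.

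In the integrated stress response, kinases that sense stress phosphorylate the translation factor eIF2, which lowers protein synthesis in general while translation of the ATF4 mRNA goes up. ATF4 is a basic leucine zipper (bZIP) transcription factor that pairs with C/EBP proteins and activates genes of amino acid uptake and synthesis, tRNA charging, redox balance and, under lasting stress, cell death. EIF2AK3 (PERK) acts in the endoplasmic reticulum and EIF2AK4 (GCN2) senses uncharged tRNA, and the PPP1R15 proteins bring a phosphatase back to eIF2. Because ATF4 is controlled largely at translation, its mRNA level is not a measure of its protein.

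The whole fragments recovered from the deposited values numbered from 1156568 to 1654764 per library. The mitochondrial genome took 35.8% of them in the HT-29 control and 13.8% with SCS, and 62.3% and 46.3% in NCM460 cells. Without them, 1061700 and 1383424 fragments were nuclear in HT-29 cells, compared with 507692 and 621582 in NCM460 cells. Libraries were scaled by TMM factors, and a log2 fold change of SCS over control was taken from CPM, the fragments of a gene per 1000000 fragments of the scaled library. It is followed in parentheses by its 95% interval, which covers counting error only. Pairs of fragment numbers are given for the control first and SCS second. A locus was called higher or lower where it changed by more than 1.5-fold and the interval excluded no change. Of the 12 colon epithelium markers, 6 were at 0 fragments in both NCM460 libraries, among them KRT20, VIL1, LGALS4, CDH17 and CEACAM5, while CDX2 had 14 and 12 fragments. In HT-29 cells CDX1 and CDX2 were at 0 in both libraries. The label of colon epithelium therefore rested on KRT8, KRT18, KRT19, EPCAM, CDH1 and CDX2 in NCM460 cells. Mesenchymal markers summed to 15 and 26 fragments in HT-29 cells and to 107 and 153 in NCM460 cells. Of these, SPARC had 65 and 102 in NCM460 cells and 0 in both HT-29 libraries, while 4 and 3 of the 12 markers were at 0 in NCM460 cells. The leukocyte genes PTPRC, CD3E and CD14 were at 0 in all 4 libraries. Of the same leukocyte list, CD68 had 650, 589, 473 and 624 fragments and LYZ had 603 and 352 in HT-29 cells and 0 in both NCM460 libraries, so the list summed to between 473 and 1253.

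RefSeq promoter sequences on GRCh38.p14 were found for 28 of the 34 genes and were searched from 250 bases before to 50 bases after each start. The C/EBP-ATF letters TGATGNAA, read on both strands, stood in 6 of the 42 promoters of these 28 genes, each of another gene, and in 3.62% of all 35116 promoters. The CRE letters TGACGTCA stood in 1 of the 42 promoters and in 1.85% of all promoters. The stretches around these matches are shown because the factors known to bind such letters, ATF4, ATF3 and the C/EBP proteins, are themselves among the genes measured. Each is written 5′ to 3′ on the strand of its gene, upstream of a RefSeq start, with the match in capitals. In CHAC1 the capitals are the reverse complement of TGATGNAA. For ASNS, CEBPG, CHAC1 and JDP2 the stretch lies inside the gene coordinates that the authors deposited, and for PPP1R15A its last bases do.
ATF3 (chr1:212565166-212565273, plus strand): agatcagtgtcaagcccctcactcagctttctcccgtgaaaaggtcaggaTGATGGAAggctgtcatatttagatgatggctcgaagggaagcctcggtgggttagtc
CEBPG (chr19:33374021-33374112, plus strand): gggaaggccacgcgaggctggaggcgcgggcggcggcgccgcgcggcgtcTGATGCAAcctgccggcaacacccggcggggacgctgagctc
JDP2 (chr14:75427956-75428021, plus strand): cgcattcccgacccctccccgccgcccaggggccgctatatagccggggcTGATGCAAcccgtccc
CHAC1 (chr15:40953221-40953319, plus strand): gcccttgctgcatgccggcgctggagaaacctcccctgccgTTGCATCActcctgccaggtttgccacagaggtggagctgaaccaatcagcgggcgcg
ASNS (chr7:97872419-97872526, minus strand): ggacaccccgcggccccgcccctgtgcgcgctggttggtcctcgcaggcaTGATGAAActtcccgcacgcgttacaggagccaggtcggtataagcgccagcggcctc
PPP1R15B (chr1:204411987-204412067, minus strand): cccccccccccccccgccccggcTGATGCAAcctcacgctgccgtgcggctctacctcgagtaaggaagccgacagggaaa
PPP1R15A (chr19:48872313-48872420, plus strand): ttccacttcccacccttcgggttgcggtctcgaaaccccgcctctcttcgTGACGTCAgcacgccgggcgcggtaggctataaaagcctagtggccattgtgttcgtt
With SCS in HT-29 cells, ASNS, CEBPG, CHAC1 and JDP2 of the 6 genes with TGATGNAA were called higher, and ATF3 and PPP1R15B were not called, while the call of JDP2 was lost with 4 of 12 alternatives. PPP1R15A, the gene with TGACGTCA, was called higher too. Of all 32 genes compared in HT-29 cells 22 (68.8%) were called higher, and of all loci 16.8%. The calls thus do not set the genes with a match apart from the rest of the 32. A match in these letters is a description and not a binding site.

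To investigate how the response genes differed with SCS in HT-29 cells, the 32 of the 34 genes with a mean of at least 1 CPM were compared. SCS was accompanied by higher levels of 22 of them and lower levels of 2, ATF5 and PHGDH, with a median log2 fold change of 1.13. Over all 12168 loci compared in HT-29 cells, 31.5% were called, 16.8% higher and 14.8% lower, and the median was 0.07. Among the stress regulators 16 of 20 compared were called higher and 1 lower, with a median of 1.57. The median was the same with the control of NUPR1, which had 0 fragments, set to 3 fragments. Among the enzymes 5 of 11 were called higher and 1 lower, with a median of 0.51 that turned to -0.04 by FPKM. Summed over the list, regulators made up 1964 CPM of the nuclear fragments in the HT-29 control and 3898 with SCS, and enzymes 1333 and 1909. The mitochondrial share of the libraries fell over the same comparison, and its part in these differences was not tested. With nuclear fragments as library size, 14 regulators and 4 enzymes were called higher, with medians of 1.43 and 0.36. With the nuclear fragments thinned to equal depth, 14 regulators and 5 enzymes were called higher, with medians of 1.46 and 0.66. In bulk RNA, a change in the share of cells that express a gene and a change in the RNA per cell cannot be told apart.

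**Figure D1:**
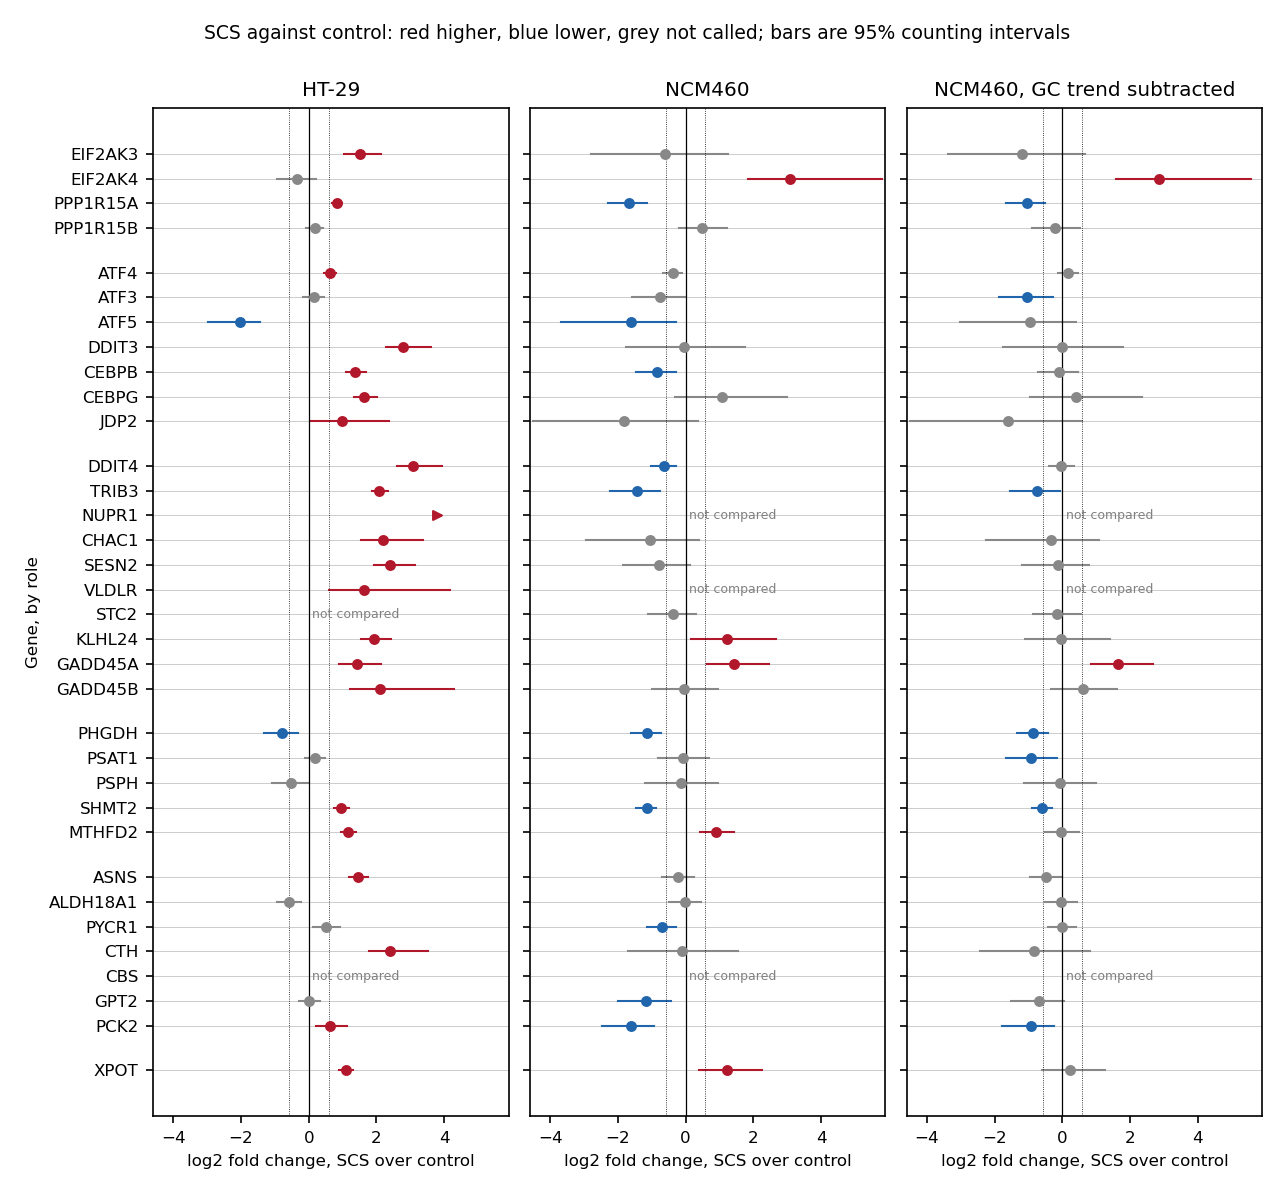
Log2 fold change of SCS over control (horizontal axis) for each gene (vertical axis, grouped by role) in HT-29 cells, in NCM460 cells, and in NCM460 cells with the trend on transcript GC content removed. Points are 1 library against 1 library, and dotted lines mark 1.5-fold. Bars are 95% counting intervals, cut off near the left edge for JDP2 in NCM460 cells. The triangle of NUPR1 has its 0 fragments in the control set to 3. In HT-29 cells 22 genes are called higher, and in NCM460 cells 5 are called higher and 10 lower.

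Among the kinases and phosphatase subunits, EIF2AK3 and PPP1R15A were called higher in HT-29 cells, and EIF2AK4 and PPP1R15B were not called. EIF2AK3 (chr2:88556741-88627576) had 37 fragments in untreated and 129 in SCS-treated HT-29 cells, and 6 in untreated and 5 in SCS-treated NCM460 cells. Its log2 fold change in HT-29 cells was 1.51 (1.03 to 2.14). PPP1R15A (GADD34), the phosphatase subunit induced by stress, had 545 and 1145 fragments in HT-29 cells, against 87 and 37 in NCM460 cells. Its values moved apart between the lines, at 0.84 (0.69 to 0.99) in HT-29 cells and -1.67 (-2.30 to -1.14) in NCM460 cells. PPP1R15B, its constitutive relative, had 234 and 311 fragments in HT-29 cells, compared with 27 and 53 in NCM460 cells, with log2 fold changes of 0.18 and 0.48 that were not called. EIF2AK4 (chr15:39934146-40035591) had 55 and 50 fragments in HT-29 cells, a log2 fold change of -0.35 (-0.95 to 0.21) that was not called. In NCM460 cells it went from 3 fragments to 46, a ratio of 11.0, and its log2 fold change of 3.10 (1.83 to 5.79) was the highest of the 31 genes compared there. The interval is wide because the control value rests on 3 fragments.

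The bZIP factors included ATF4 itself and several of its partners and targets, and 5 of the 7 were called higher in HT-29 cells. ATF4 (chr22:39519695-39522685) had 387 fragments in untreated and 703 in SCS-treated HT-29 cells, and 196 in untreated and 209 in SCS-treated NCM460 cells. Its log2 fold change in HT-29 cells was 0.63 (0.45 to 0.81), or 1.55-fold, only just over the threshold of 1.5-fold. With 5 of the other ways of scaling or measuring it was between 0.43 and 0.58 and was not called. In NCM460 cells it was -0.38 (-0.67 to -0.09) and not called. The processed copies ATF4P1, ATF4P3 and ATF4P4 together held 1 fragment in the 4 libraries.

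DDIT3 (CHOP), a factor linked to death under lasting stress, had the highest rise of this family, with 22 and 195 fragments in HT-29 cells, against 6 and 8 in NCM460 cells. The log2 fold change was 2.78 (2.28 to 3.62) in HT-29 cells, or 7.55-fold, and -0.05 in NCM460 cells. The last 982 bases of its locus (25.0%) overlap MARS on the other strand, which had 186 and 369 fragments in HT-29 cells, and no source states that strand was used in counting. CEBPG, a C/EBP partner of ATF4, had 97 and 362 fragments in HT-29 cells, compared with 5 and 16 in NCM460 cells, with a log2 fold change of 1.64 (1.34 to 2.01) in HT-29 cells. CEBPB, another such partner, had 131 and 403 fragments in HT-29 cells, against 58 and 44 in NCM460 cells. It was called higher in HT-29 cells at 1.37 (1.10 to 1.68) and lower in NCM460 cells at -0.85 (-1.47 to -0.28). JDP2, a repressor that binds CRE-like letters, had 10 and 26 fragments in HT-29 cells, at 0.97 (0.05 to 2.36), and 5 and 1 in NCM460 cells, which was not called. Its value in HT-29 cells was 0.15 (-1.47 to 1.89) at equal nuclear depth and 0.17 by FPKM.

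ATF5 and ATF3 did not move with the rest of the family. ATF5 (chr19:49928702-49933935), a close relative of ATF4, went from 77 fragments to 20 in HT-29 cells and from 13 to 5 in NCM460 cells. It was called lower in both lines, at -2.02 (-2.97 to -1.45) and -1.61 (-3.69 to -0.27). Its row has the same values as MIR4751, and it lies within a locus on the other strand that holds NUP62 and IL4I1, with 211 and 139 fragments in HT-29 cells, compared with 71 and 59 in NCM460 cells, so its own level is uncertain. ATF3, a target of ATF4 that responds early to stress, had 158 and 205 fragments in HT-29 cells, against 32 and 26 in NCM460 cells. Its log2 fold changes of 0.14 (-0.16 to 0.45) and -0.74 (-1.58 to 0.02) were not called.

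The stress effectors stood highest, and all 9 that were compared in HT-29 cells were called higher, with a median log2 fold change of 2.09. DDIT4 (REDD1, chr10:72273920-72276036), an inhibitor of mTORC1 signaling, had 22 fragments in untreated and 242 in SCS-treated HT-29 cells, and 134 in untreated and 119 in SCS-treated NCM460 cells. The log2 fold change in HT-29 cells was 3.08 (2.60 to 3.93), or 9.37-fold. Scaled to CPM, the HT-29 control stood at 10.8 and the other libraries between 100.7 and 172. The antisense RNA RP11-442H21.2 covers 50.4% of the DDIT4 locus and had 11 and 75 fragments in HT-29 cells, compared with 30 and 45 in NCM460 cells, so reads of both could not be told apart without strand.

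TRIB3 (chr20:362835-397559), a pseudokinase induced by ATF4 and CHOP, had 179 and 893 fragments in HT-29 cells, against 50 and 25 in NCM460 cells. It was called higher in HT-29 cells at 2.07 (1.85 to 2.33) and lower in NCM460 cells at -1.42 (-2.23 to -0.75). NUPR1 (chr16:28532708-28539174), a small chromatin protein of the stress response, went from 0 fragments to 49 in HT-29 cells and stayed at 0 in both NCM460 libraries. Against a floor of 3 fragments in the control library it was 13.9-fold higher with SCS. Counting error put the lower limit of its log2 fold change at 3.44, and at 2.38 at equal nuclear depth. At the depth of the NCM460 libraries, 0 fragments allow up to 5.91 and 4.83 CPM of the nuclear fragments.

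SESN2, a sestrin that restrains mTORC1, and CHAC1, an enzyme that degrades glutathione, also rose in HT-29 cells. SESN2 had 28 and 188 fragments in HT-29 cells, at 2.41 (1.94 to 3.14), and 22 and 17 in NCM460 cells. CHAC1 had 13 and 80 fragments in HT-29 cells, at 2.18 (1.53 to 3.36), and 10 and 6 in NCM460 cells. Neither was called in NCM460 cells, where the intervals of -0.80 (-1.85 to 0.13) and -1.05 (-2.95 to 0.39) included no change. Both GADD45 genes, which code for small stress sensors, were higher in HT-29 cells. GADD45A had 29 and 96 fragments there, at 1.42 (0.88 to 2.15), and GADD45B had 5 and 35, at 2.09 (1.22 to 4.28). In NCM460 cells GADD45A had 14 and 55 fragments and was called higher at 1.44 (0.63 to 2.46), whereas GADD45B had 17 and 23 and was not called. GADD45A was the regulator with nearly the same value in both lines.

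KLHL24, a member of the kelch-like family, had 52 and 239 fragments in HT-29 cells, at 1.92 (1.53 to 2.43), and 8 and 28 in NCM460 cells, at 1.23 (0.16 to 2.68). VLDLR, a lipoprotein receptor, had 4 and 21 fragments in HT-29 cells, at 1.63 (0.59 to 4.16), and 0 and 1 in NCM460 cells, where it was not compared. STC2, a secreted glycoprotein, was the effector seen in NCM460 cells and not in HT-29 cells. It had 35 and 37 fragments in the NCM460 libraries and 0 in both HT-29 libraries, which allows up to 2.83 CPM of the nuclear fragments in the control, the shallower of them.

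**Figure D2:**
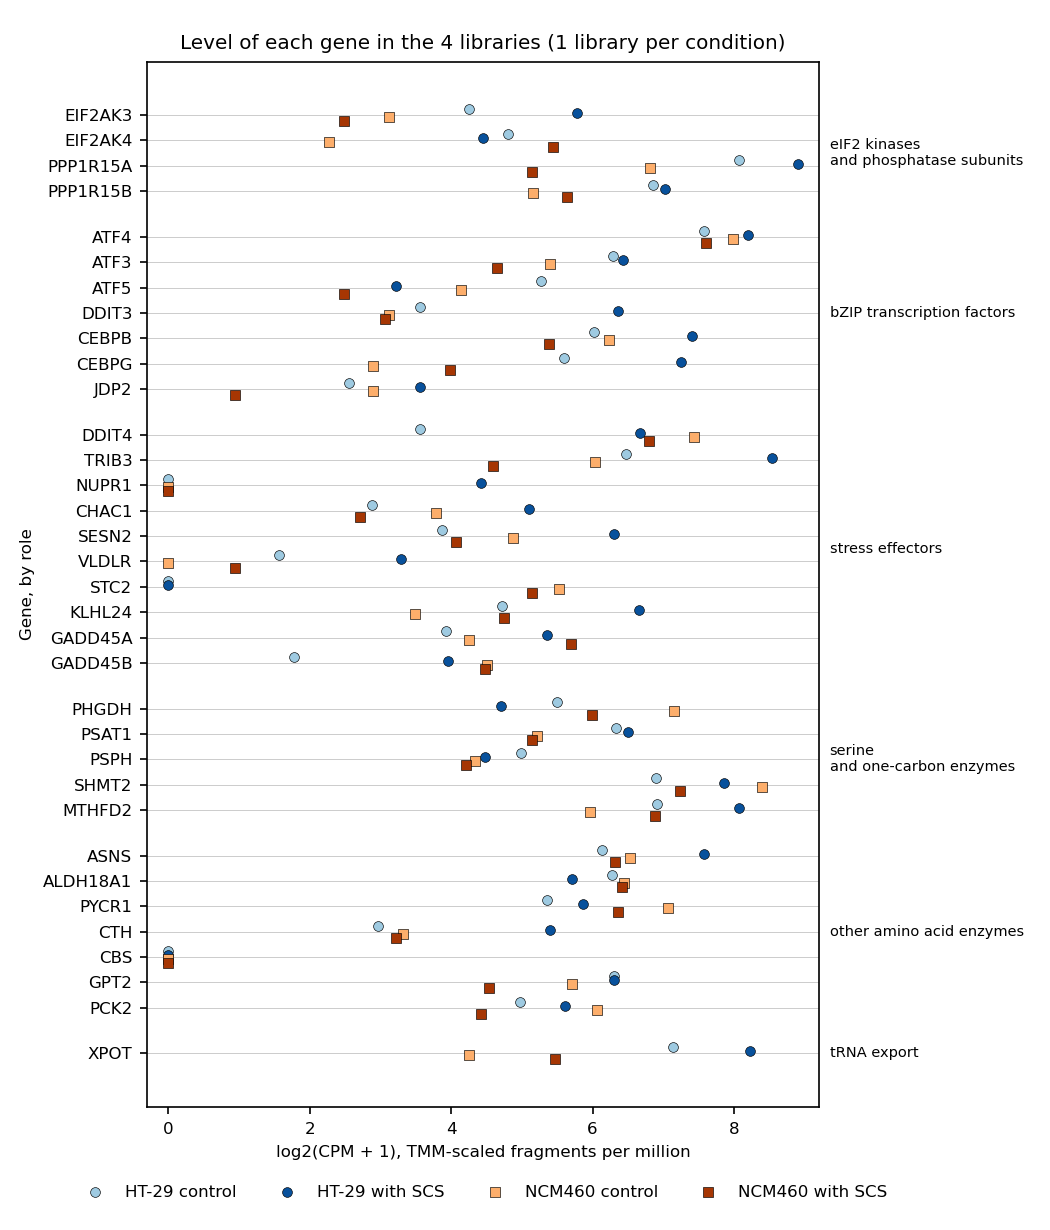
Level of each gene (vertical axis, grouped by role) in the 4 libraries as log2(CPM + 1) on the horizontal axis, with circles for HT-29 cells, squares for NCM460 cells and the darker color for SCS. Each point is 1 library, so there are no error bars. The HT-29 control lies lowest of the 4 for 9 of the 34 genes, among them DDIT4, GADD45B and ATF4, while STC2 is seen in NCM460 cells and NUPR1 in HT-29 cells with SCS.

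The serine and one-carbon enzymes did not move as a group in HT-29 cells. MTHFD2 and SHMT2, which carry out mitochondrial folate steps, were called higher, and PHGDH, the first enzyme of serine synthesis, was called lower. MTHFD2 (chr2:74198562-74217565) had 243 and 642 fragments in HT-29 cells, at 1.16 (0.95 to 1.39), and 48 and 126 in NCM460 cells, at 0.90 (0.43 to 1.43). SHMT2 (chr12:57229327-57234935) had 242 and 555 fragments in HT-29 cells, compared with 261 and 162 in NCM460 cells. It was called higher in HT-29 cells at 0.96 (0.75 to 1.19) and lower in NCM460 cells at -1.15 (-1.45 to -0.87). PHGDH (chr1:119659798-119744215) had 90 and 60 fragments in HT-29 cells, at -0.79 (-1.31 to -0.33), and 110 and 68 in NCM460 cells, at -1.15 (-1.63 to -0.72). It was the only enzyme called lower in both lines. PSAT1 and PSPH, the next steps of serine synthesis, were not called in either line. PSAT1 had 162 and 215 fragments in HT-29 cells, against 28 and 37 in NCM460 cells, and PSPH had 63 and 51, and 15 and 19.

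Of the other amino acid enzymes, ASNS, CTH and PCK2 were called higher in HT-29 cells. ASNS (chr7:97852118-97872542), which makes asparagine, had 141 and 455 fragments in HT-29 cells, at 1.44 (1.18 to 1.74), and 71 and 85 in NCM460 cells, which was not called. CTH, the enzyme that makes cysteine from cystathionine, had 14 and 99 fragments in HT-29 cells, compared with 7 and 9 in NCM460 cells. Its log2 fold change of 2.39 (1.78 to 3.51) in HT-29 cells was the highest of the enzymes. CBS, the step before CTH, was listed at 0 in all 4 libraries, as was its near-identical copy CBSL, so no level can be given. PCK2, the mitochondrial PEP carboxykinase, had 62 and 115 fragments in HT-29 cells, against 51 and 22 in NCM460 cells. It was called higher in HT-29 cells at 0.64 (0.20 to 1.13) and lower in NCM460 cells at -1.63 (-2.48 to -0.94). In HT-29 cells it was not called with 4 of the other ways of scaling or measuring, at 0.47 to 0.66.

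GPT2, a mitochondrial alanine aminotransferase, had 159 and 188 fragments in HT-29 cells, at 0.01, and 40 and 24 in NCM460 cells, where it was called lower at -1.17 (-2.005 to -0.45). In the proline pathway, ALDH18A1 had 157 and 123 fragments in HT-29 cells, compared with 67 and 91 in NCM460 cells. It was not called in either line, at -0.57 (-0.94 to -0.23) and -0.03. PYCR1, the last enzyme of proline synthesis, shares its values with the overlapping MYADML2. It had 82 and 138 fragments in HT-29 cells, at 0.51 (0.11 to 0.93), and 104 and 88 in NCM460 cells, where it was called lower at -0.71 (-1.14 to -0.29). XPOT (chr12:64404350-64451127), which carries tRNA out of the nucleus, had 285 and 716 fragments in HT-29 cells, against 14 and 47 in NCM460 cells. It was called higher in both, at 1.09 (0.90 to 1.30) and 1.22 (0.39 to 2.25).

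In NCM460 cells the picture was mixed, and lower calls outnumbered higher ones. Of 31 genes compared there, 5 were called higher and 10 lower, with a median log2 fold change of -0.38. Over all 12657 loci compared in NCM460 cells, 29.2% were called, 15.4% higher and 13.8% lower, with a median of 0.03. Regulators were called higher in 3 of 19 and lower in 5, with a median of -0.61 that turned to 0.0489 with total fragments only, and enzymes were called higher in 1 of 11 and lower in 5, with a median of -0.21. The share of genes called higher was near that of all loci, and the share called lower was 32.3%.

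Over all loci, the fold change in NCM460 cells depended on how rich in GC the transcript is. Across 12590 loci, which are not independent replicates, Spearman's rho was -0.62, against -0.12 across 12096 loci in HT-29 cells. Transcript GC content ran from 36.7% in KLHL24 to 66.2% in CEBPB, with a median of 51.5% for the regulators, 49.8% for the enzymes and 49.1% for all loci compared in NCM460 cells. When this dependence was removed with a smooth curve, which is called the GC trend here, 12.2% of 12590 loci were called, 5.76% higher and 6.41% lower. Of the 31 genes, 2 were then called higher, GADD45A at 1.65 (0.85 to 2.68) and EIF2AK4 at 2.86 (1.59 to 5.56), and 7 were called lower. The 7 were TRIB3 at -0.74, SHMT2 at -0.59, PCK2 at -0.94, PPP1R15A at -1.04, PHGDH at -0.86, ATF3 at -1.04 and PSAT1 at -0.92. SHMT2 was only just past 1.5-fold, and the interval of TRIB3 reached -0.07. MTHFD2, KLHL24 and XPOT, which are poor in GC, were at -0.04, -0.05 and 0.21 and no longer called. DDIT4, PYCR1 and CEBPB, which are rich in GC, were at -0.03, -0.00 and -0.12 and no longer called, as were ATF5 at -0.95 and GPT2 at -0.68. ATF4 was at 0.17 (-0.12 to 0.46). The median was -0.15 for the regulators and -0.59 for the enzymes, of which all 11 compared were below 0 and 4 were called lower.

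**Figure D3:**
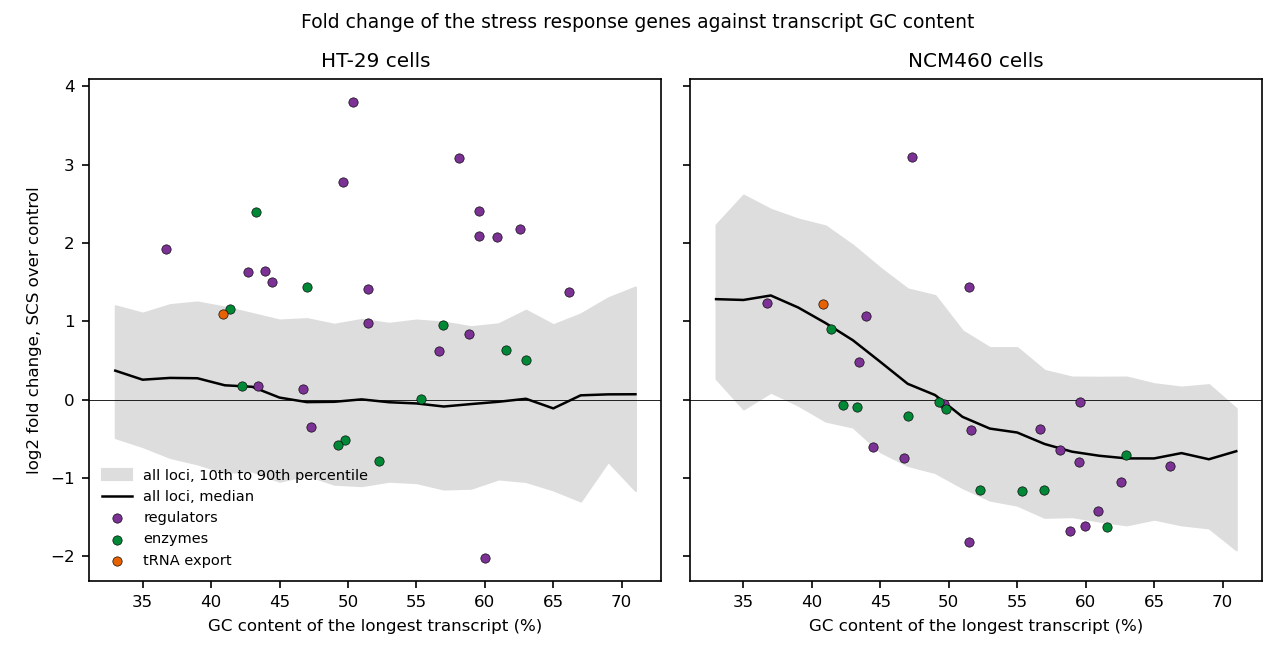
Log2 fold change of SCS over control (vertical axis) against the GC content of the longest transcript in percent (horizontal axis), in HT-29 cells on the left and NCM460 cells on the right. The line and the grey band are the median and the 10th to 90th percentile of all loci in steps of GC content. Each point is a gene, and NUPR1 in HT-29 cells has its 0 fragments in the control set to 3. In HT-29 cells most regulators lie above the band of all loci at any GC content, and in NCM460 cells the points follow the falling line, and 25 of 31 lie below the GC trend, all 11 enzymes among them, with EIF2AK4 and GADD45A above it.

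The lines were then set side by side. Both were called higher for 4 genes, MTHFD2, KLHL24, XPOT and GADD45A, and both lower for ATF5 and PHGDH. For 6 genes the call was higher in HT-29 cells and lower in NCM460 cells, namely DDIT4, TRIB3, SHMT2, CEBPB, PCK2 and PPP1R15A. With the GC trend subtracted in NCM460 cells, 1 gene was called higher in both (GADD45A), 1 lower in both (PHGDH) and 4 in opposite directions (TRIB3, SHMT2, PCK2 and PPP1R15A). Without the GC trend subtracted, another 10 genes were called higher in HT-29 cells and not called in NCM460 cells. With it subtracted there were 15. A missing call does not show that the lines differed. The NCM460 libraries held fewer nuclear fragments, and for DDIT3, CTH, CHAC1, EIF2AK3 and JDP2 they had 10 fragments or fewer. How many of all loci fell into each of these classes was not counted. The counts of genes therefore cannot be set against a share of all loci.

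A change shared by both lines was also fitted to the 4 libraries with terms for line and SCS, which leaves 1 degree of freedom for the spread. By edgeR's quasi-likelihood test with Benjamini-Hochberg adjustment, 9 of 12942 loci (0.0695%) passed an adjusted p of 0.05, and none of the 33 genes did. At an unadjusted p of 0.05 there were 695 of the 12942 loci and 7 of the 33 genes, NUPR1, ATF5, KLHL24, DDIT3, GADD45A, CEBPG and XPOT. NUPR1 had 0 fragments in both NCM460 libraries and DDIT3 was at -0.05 (-1.78 to 1.75) there. The values of NUPR1 and DDIT3 thus come from HT-29 cells, and a shared change is not shown. The fit did not account for the GC trend. With it subtracted in NCM460 cells, KLHL24 was at -0.05, XPOT at 0.21, CEBPG at 0.41 and ATF5 at -0.95, none of them called. GADD45A was at 1.65 and called higher. DESeq2 gave an adjusted p to 1651 loci and called 27 (1.64%). XPOT was among the genes given one, and none of these genes passed. Others of the 33, among them NUPR1, ATF5, KLHL24, DDIT3, GADD45A and CEBPG, were given no adjusted p and so could not pass. At an unadjusted p of 0.05 by DESeq2 there were 230 loci, and XPOT alone of the 33 genes.

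Levels of different genes were compared by FPKM, which is per length of transcript. ATF4 had the highest FPKM of the 34 genes in the HT-29 control, at 98.4, followed by PPP1R15A at 68.9 and SHMT2 at 64.1. With SCS, TRIB3 was highest at 171, up from 36.7 in the control, and ATF4 was next at 140. In the NCM460 control the highest were SHMT2 at 232, ATF4 at 171 and DDIT4 at 137, and with SCS ATF4 at 108, SHMT2 at 103 and DDIT4 at 77.7. The order in HT-29 cells thus changed at the top with SCS, and the same 3 genes led in NCM460 cells with and without it. FPKM and fragments disagreed for a few genes. STC2 in NCM460 cells had nearly the same number of fragments in both libraries but an FPKM of 25.2 and 5.68, and KLHL24 had 8 and 28 fragments but an FPKM of 35.8 and 11.9. Over the loci compared, the median log2 ratio of FPKM was -0.14 in HT-29 cells and -0.39 in NCM460 cells. The part of transcript length in these differences was not tested.

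Genes around the response were examined as lists. Over all loci compared in HT-29 cells, 16.8% were called higher and 14.8% lower. In HT-29 cells 9 of 12 cytosolic tRNA synthetases, which charge tRNA with amino acids, were called higher and none lower, with a median log2 fold change of 0.89. The highest was WARS, from 159 and 548 fragments at 1.54 (1.30 to 1.82), and the lowest was LARS at -0.05, which was not called. Of the amino acid transporters 7 of 9 were called higher and none lower, with a median of 1.44. SLC6A9, a glycine transporter, had 5 and 77 fragments, at 3.17 (2.43 to 5.38), and SLC7A11, the cystine importer, had 159 and 1007, at 2.41 (2.19 to 2.68). The lowest transporter was SLC1A5, a glutamine carrier, at 0.02. Of the other ATF4 targets 8 of 9 compared were called higher, with a median of 1.80. GDF15, a secreted stress cytokine, had 144 and 1355 fragments, at 2.98 (2.75 to 3.26), and CARS2 was lowest at -0.28 and not called. FGF21, a hormone induced by ATF4, had 1 fragment in HT-29 cells with SCS and was not compared.

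The ATF6 and IRE1 arm of the unfolded protein response, which runs beside PERK and ATF4 in the endoplasmic reticulum, was called higher in 9 of 10 genes in HT-29 cells, with a median of 1.40. ERN1, which codes for IRE1, had 30 and 309 fragments, at 3.03 (2.59 to 3.72), and the chaperone HSPA5 (BiP) had 855 and 4829, at 2.26 (2.16 to 2.37). SDF2L1 was lowest at 0.45 and not called. Of the genes for eIF2, eIF2B and the other eIF2 kinases, 3 of 10 were called higher and 1 lower. All loci stood at 16.8% and 14.8%, and the median of the list was 0.16. In this list EIF2B2 was highest at 0.99 (0.14 to 2.23), and EIF2B3 lowest at -0.74 (-1.82 to 0.09), which was not called. The list of eIF2 and eIF2B subunits and kinases thus lay near the median of all loci, unlike the other four.

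The medians of the lists in NCM460 cells lay on both sides of that of all loci. Over all loci compared there, 15.4% were called higher and 13.8% lower, and 5.76% and 6.41% with the GC trend subtracted. Transporters were called higher in 1 of 9 and lower in 5, with a median of -0.79, and with the GC trend subtracted in 0 and 3. SLC38A2, a carrier of neutral amino acids, passed from higher at 0.59 to lower at -0.62 (-0.90 to -0.34) by this step. SLC6A9 was lowest, from 9 and 2 fragments at -2.04 (-5.89 to -0.37), a call that was lost with the GC trend subtracted at -1.39 (-5.24 to 0.28), and SLC7A11 was highest at 1.33 (-0.11 to 3.57) from 4 and 16 fragments, which was not called. The ATF6 and IRE1 arm was called higher in 5 of 10 and lower in none, with a median of 0.97. With the GC trend subtracted it was called higher in 4, HSPA5, HSP90B1, EDEM1 and DNAJC3, and lower in 1, XBP1. HSPA5 had 140 and 473 fragments, at 1.28 (1.01 to 1.57) and at 0.90 with the trend subtracted. DNAJC3 was highest at 2.67 (1.17 to 6.29) from 2 and 25 fragments, and SDF2L1 lowest at -0.66, which was not called.

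The tRNA synthetases were called higher in 5 of 12 and lower in 3 in NCM460 cells, and with the GC trend subtracted in 1 each. That is 8.33% each, near the 5.76% and 6.41% of all loci. EPRS had 13 and 93 fragments, at 2.28 (1.52 to 3.33) and at 1.53 with the trend subtracted, and WARS was lowest at -0.88 (-1.52 to -0.29). Of the other ATF4 targets 1 of 8 compared was called higher and 1 lower, or 12.5% each, near the 15.4% and 13.8% of all loci. ERO1A, an oxidase of the endoplasmic reticulum, was highest at 1.41 (0.80 to 2.12) and at 0.23 with the trend subtracted. FBXO32 was lowest, from 7 and 3 fragments at -1.34 (-4.28 to 0.44), which was not called. With the trend subtracted it was called lower at -2.05 (-4.98 to -0.27). The list then had 0 called higher and 1 lower, against 5.76% and 6.41% of all loci. GDF15 had 332 and 372 fragments, at -0.31, and was not called. Of the genes for eIF2, eIF2B and the other eIF2 kinases, 5 of 10 were called higher and 2 lower, and 2 higher with the GC trend subtracted. EIF2B3 had 0 and 14 fragments, 3.36-fold higher against the floor of 3 fragments, and the lower limit of its log2 fold change was 1.26. EIF2B4 was lowest at -0.93 (-1.91 to -0.08).

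**Figure D4:**
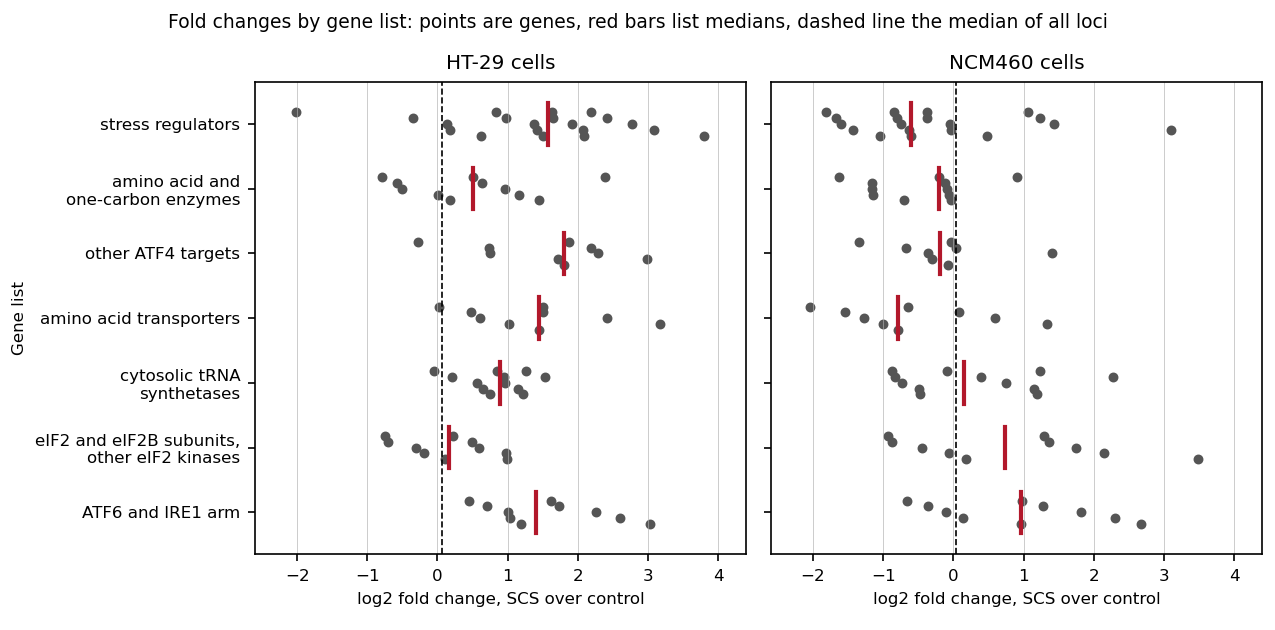
Log2 fold change of SCS over control (horizontal axis) for the genes of each list (vertical axis) in HT-29 cells on the left and NCM460 cells on the right. Points are genes, red bars are list medians and the dashed line is the median of all loci. NUPR1 in HT-29 cells has its 0 fragments in the control set to 3, and EIF2B3 in NCM460 cells is at a fitted value that depends on the prior count. In HT-29 cells every list but that of eIF2 and eIF2B has its median well to the right of the dashed line, and in NCM460 cells the medians lie on both sides of it.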

How the data were processed

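The 4 RNA-seq libraries, untreated and SCS-treated (100 μg/mL, 24 h) HT-29 and NCM460 cells with 1 library each, were mapped by the labels and the column names. According to the methods, TRIzol RNA was sequenced as paired-end reads, low-quality, adapter and poly-N reads were taken out, and Cuffdiff was used. The labels name the NEBNext Ultra kit. The submitters' processing notes name bcl2fastq 2.17.1.14, cutadapt 1.9.1, Bowtie2 and HTSeq 0.6.1 with build hg19, whereas the coordinates of the table are those of GRCh38. The statistics section speaks of biological replicates, and 1 library per condition was analysed here.

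The count columns that the authors deposited hold a signal, fragment counts scaled by a factor for each library (1 fragment was worth 0.686, 0.577, 2.04 and 1.33 in the order HT-29 control, HT-29 with SCS, NCM460 control and NCM460 with SCS). Division by it gave whole numbers, within 0.1 of a fragment, for 99.9% of values above 0 in each library. The authors also deposited FPKM values, fragments per kilobase of transcript scaled by library size. The design had assumed counts. Rows without a gene name (26) were left out, which held from 0.00581% to 0.0352% of the values. Rows with identical values in all columns were merged into 18650 loci, of which 1812 hold more than 1 gene. GC content and length came from GENCODE release 29, found for 98.9% of loci, of which 88.8% had the same coordinates. ERO1A is listed by its older symbol.

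Fragments were scaled by TMM factors (1.24, 1.50, 0.578 and 0.935) of edgeR 4.0.16 in R 4.3.3, with a prior count set to 2. A locus was compared in a line where its 2 libraries averaged 1 CPM or more. Intervals are exact Clopper-Pearson intervals at 95% on the share of fragments in the SCS library. A floor of 3 fragments, 2.83, 2.17, 5.91 and 4.83 CPM of nuclear fragments, was used for a library at 0. Having 1 library per condition, edgeR and DESeq2 1.42.0 could not be fitted within a line and called no genes there. The GC trend was a lowess curve with a span of 0.3. The method was tested on simulated data. The genes and lists were chosen with earlier results of these data known. Every gene is named, with fragments in all libraries where it was called, and from each list the highest and lowest at a mean of at least 5 CPM in each line, while HSPA5, SLC7A11 and GDF15 were added after their values were seen. Alternatives were DESeq2 size factors, total fragments, the authors' scaling, nuclear fragments as library size, a prior count of 0.5, other filters, trends on GC content, expression or length, equal nuclear depth (507692 fragments), FPKM and the omission of merged loci. TMM factors of the line alone and the model shared by both lines were chosen after seeing the data.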

Additional observations from a re-analysis of the deposited data

Results flagged for a closer look

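For 6 genes the single SCS library lay above its control in HT-29 cells and below it in NCM460 cells, both past 1.5-fold. The difference between the lines was not tested, since each line has 1 library per condition. How many of all loci were called in opposite directions was not counted. The log2 fold changes in HT-29 and NCM460 cells were 3.08 and -0.64 for DDIT4 and 2.07 and -1.42 for TRIB3. They were 0.96 and -1.15 for SHMT2 and 1.37 and -0.85 for CEBPB. They were 0.64 and -1.63 for PCK2 and 0.84 and -1.67 for PPP1R15A. With the GC trend subtracted in NCM460 cells, TRIB3, SHMT2, PCK2 and PPP1R15A were still called lower there. TRIB3 was at -0.74 (-1.55 to -0.07) and SHMT2 at -0.59 (-0.89 to -0.31), only just past 1.5-fold. PCK2 was at -0.94 (-1.79 to -0.25) and PPP1R15A at -1.04 (-1.67 to -0.50). DDIT4 and CEBPB were at -0.03 and -0.12 and no longer called.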

How the results depend on the processing

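No paired analysis was possible because each condition has 1 library, and no library could be left out. In HT-29 cells 19 of the 22 higher calls and 1 of the 2 lower calls were kept in all 12 alternatives that give calls, the exceptions being ATF4, JDP2, PCK2 and PHGDH. In NCM460 cells 2 of the 5 higher calls (GADD45A and EIF2AK4) and 3 of the 10 lower calls (TRIB3, PCK2 and PPP1R15A) were kept in all of them. Scaling by total fragments only moved the median of all loci from 0.07 to 0.32 in HT-29 cells and from 0.03 to 0.57 in NCM460 cells, which by its construction moves each gene with it. The cause of the other shifts was not tested.

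In HT-29 cells the 1 enzyme called lower became 0 with total fragments only, 2 with DESeq2 size factors, the authors' scaling, an expression or length trend subtracted or TMM factors of the line alone, and 3 with nuclear fragments as library size or equal nuclear depth. No regulator (0) was called lower in HT-29 cells without merged loci, and by FPKM the median of the regulators was 0.83 and that of the enzymes -0.04. In NCM460 cells with total fragments only, regulators were called higher in 5 and lower in 2, enzymes higher in 2 and lower in 1, the medians of regulators and enzymes were 0.0489 and 0.47, DDIT4 turned to 0.0489 and ALDH18A1 to 0.65. With the GC trend subtracted, regulators were called lower in 3 and enzymes higher in 0, MTHFD2 turned to -0.0427 and KLHL24 to -0.0475, and by FPKM KLHL24 was at -1.59. At equal nuclear depth regulators were called lower in 2 and the median of the enzymes was 0. The genes called in opposite directions were 3 with total fragments only and 3 at equal nuclear depth, against 6. Of the other single-gene values, 740 kept their call or lack of one, of which 35, none of them called, changed sign, 39 lost a call, 20 gained one and 13 without a call moved beyond their interval.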
